A study of Rattus norvegicus with 12 samples.

Results

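The subunits of the 5 oxidative phosphorylation complexes were examined in testes of rat embryos at day 16 of gestation. Members were taken by gene symbol: every probe set with a single symbol beginning Ndufa, Ndufb, Ndufc, Ndufs or Ndufv (assembly factors with Ndufaf left out), Uqcr, Cox4 to Cox8 or Atp5, and those of Sdha, Sdhb, Sdhc, Sdhd and Cyc1, with pseudogenes left out. This gave 89 of 31042 non-control probe sets, for 80 of 14217 named genes, with these probe sets per complex: 39 in complex I, 5 in complex II, 9 in complex III, 16 in complex IV and 20 in complex V. The rule used no measured value, but it was set with earlier results of these data known. A total of 84 of the 89, for 78 genes, passed the filter on dim probe sets and were tested. The 5 that did not pass belonged to Cox8b (signal 0.5 to 1.7 over the 12 arrays), Cox6a2 (0.6 to 20.0) and extra probe sets of Atp5po (3.5 to 23.4), Atp5if1 (7.6 to 23.7) and Atp5me (1.0 to 25.9). The dimmest that passed were a probe set of Ndufa9 (8.7 to 19.8) and that of Ndufa4l2 (6.1 to 26.6). A further 7 probe sets that carry a subunit's symbol together with another symbol (Atp5mc1, Atp5mc2, Cox7a2, Cox5a, Uqcrb, Ndufs5 and Ndufa10) were outside the rule.

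Pregnant rats received intraperitoneal vinclozolin at 100 mg/kg/day, or sesame oil with DMSO as vehicle, from day 8 to day 14 of pregnancy. Vinclozolin, used against fungi on crops, is known for metabolites that antagonise androgen signalling. The 6 groups were F1 vinclozolin and F1 control, whose embryos were in the womb during dosing, then F2 vinclozolin and F2 control, and F3 vinclozolin and F3 control, which the protocols describe as later matings with no further dosing. Each group had 2 arrays, each hybridised with RNA of about 10 pooled testes, and nothing in the labels tells if a group's pools were from separate litters. The p-values therefore measure the spread between RNA pools. For F2 and F3 vinclozolin the protocols speak of mated animals from different control lines; the group names in the sample titles were followed.

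Oxidative phosphorylation takes place in the inner mitochondrial membrane. Complex I (NADH dehydrogenase) and complex II (succinate dehydrogenase) pass electrons to ubiquinone, complex III (cytochrome bc1) passes them on to cytochrome c, and complex IV (cytochrome c oxidase) passes them to oxygen. Complexes I, III and IV pump protons, and complex V (ATP synthase) makes ATP from the proton gradient. The genes measured here are encoded in the nucleus; each complex except complex II also has mitochondrially encoded subunits. In the fetal testis, Leydig cell mitochondria also hold the side-chain cleavage enzyme that starts androgen synthesis.

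A Leydig and a Sertoli cell marker were bright on all 12 arrays. Of the 10 listed germ cell genes, 3 had a probe set with a single symbol. Their signals summed to 221 to 350 per array, and 3 genes are too few to tell the germ cell content. Signals of the ovary list summed to 177 to 229. The Leydig cell enzyme Cyp17a1 had signals of 3889 to 4698 and the Sertoli cell hormone Amh 2397 to 3418, while the ovarian regulator Foxl2 lay between 2.8 and 28.6. The 5'/3' signal ratio of the beta-actin control probe sets, a measure of RNA integrity and of how far labelling reached from the 3' end, separated the lineages. It averaged 0.171 ± 0.030 in F1 vinclozolin against 0.459 ± 0.003 in F1 control, 0.233 ± 0.020 in F2 vinclozolin against 0.447 ± 0.034 in F2 control, and 0.378 ± 0.025 in F3 vinclozolin against 0.453 ± 0.016 in F3 control (SD, n = 2 arrays each). The same ratio of the Gapdh control probe sets did not separate them: it was 0.684 ± 0.047 in F1 vinclozolin against 1.00 ± 0.031 in F1 control and 0.760 ± 0.056 in F2 vinclozolin against 0.994 ± 0.001 in F2 control, but 0.996 ± 0.038 in F3 vinclozolin against 0.965 ± 0.008 in F3 control. Array medians lay between 40.6 and 42.9 on the vinclozolin arrays and between 44.5 and 47.1 on the control arrays. F1 vinclozolin replicate 2 stood apart: it was above replicate 1 in 71 of 84 member probe sets, by a median of 0.26 on the log2 scale, against medians of -0.03 to 0.09 in the other 5 groups. The part that RNA integrity and this array play in the results below was not tested.

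Across all complexes, most subunits had higher signal in the vinclozolin lineage in every generation. With limma on log2(signal + 16) and Benjamini-Hochberg adjustment over all 21729 tested probe sets, 45 of 84 member probe sets rose and 2 fell in F1, where 9.41% and 13.7% of all tested probe sets did. In F2, 19 rose and 2 fell (4.7% and 9.65% of all tested). In F3, 8 rose (1.05% of all tested) and 0 fell (2.06% of all tested; 0 members also fell at an unadjusted p under 0.05). For the mean of the 3 differences, 59 rose and 2 fell (14.1% and 19.2% of all tested). The median log2 fold change of the members, vinclozolin minus control, was 0.32 in F1, 0.20 in F2 and 0.20 in F3, against -0.01 over all tested probe sets in each generation. Leaving out 1 array at a time moved these counts by more than 1.5 times in several cases. The F1 count of higher members was 28 without F1 control replicate 1 and 26 without replicate 2. The F2 count was 2 without F2 control replicate 1, 8 without F2 control replicate 2, 11 and 4 without F2 vinclozolin replicates 1 and 2, and 38 with either F1 vinclozolin array left out. The F3 count was 32 with either F1 vinclozolin array left out, 2 with either F1 control left out, 4 with either F2 control left out, 1 without F3 vinclozolin replicate 1, and 0 with replicate 2 or either F3 control left out. Of the 45 calls of higher in F1, 22 were kept in each of the 12 fits that left out 1 array, against 1 of the 19 in F2 (Ndufb3) and 0 of the 8 in F3. In the mean contrast the count of higher members lay between 49 and 64, whichever array was left out. The count of lower members in F1 was 4 without F1 vinclozolin replicate 1 and 1 without replicate 2 or either F1 control. In F2 it was 5 with either F1 vinclozolin array left out, 0 without F2 control replicate 1 or F2 vinclozolin replicate 2, and 1 with any other array left out. The members' F1 median was 0.20 without F1 vinclozolin replicate 2. In bulk tissue, fewer cells of a type and less RNA per cell cannot be told apart, so these are differences in RNA per array and not per cell.

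The sign held across generations for most members. The log2 fold change was positive in all 3 generations for 67 of 84 member probe sets (79.8%), as for 23.3% of all tested probe sets; it was so for 54 members under quantile normalization (28.0% of all tested), 53 under cyclic loess (25.8%) and 70 under median centring (36.0%). The 2 vinclozolin arrays lay above the 2 control arrays in F1 for 61 member probe sets, in F2 for 57 and in F3 for 67, where 27.8%, 27.6% and 25.8% of all tested probe sets did. They lay below them for 6, 9 and 1 (30.6%, 30.4% and 29.7% of all tested). They lay above in all 3 generations for 48 (8.38% of all tested). Only Ndufa4 and Cox6c were called higher in all 3 generations (0.313% of all tested). A further 20 member probe sets were called higher in 2 generations and 26 in 1, as were 595 and 1900 of all 21729 tested. The calls of lower were Uqcrc2 1382280_at in F1 and F2, Cox4i2 in F1 and Ndufa7 1395045_at in F2. The count of 45 in F1 against 8 in F3 does not show that members differed less in F3: the F test of dependence on generation called 1 of 84 members (2.6% of all tested), which is described with complex III. Between pairs of generations, F1 minus F3 was negative for 2 members (3.03% of all tested) and positive for 0 (1.39%), with 4 and 18 at an unadjusted p under 0.05. F1 minus F2 was positive for 0 (0.0276%) and negative for 0 (0.0046%), with 9 and 0 unadjusted, and F2 minus F3 positive for 0 (0.0828%) and negative for 0 (0.433%), with 0 and 4 unadjusted. The F test depended on the arrays: it called 36 members without F1 vinclozolin replicate 1, 3 without replicate 2, 2 without F2 vinclozolin replicate 1, and 0 with any 1 of the 6 controls or either F3 vinclozolin array left out.

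**Figure D1:**
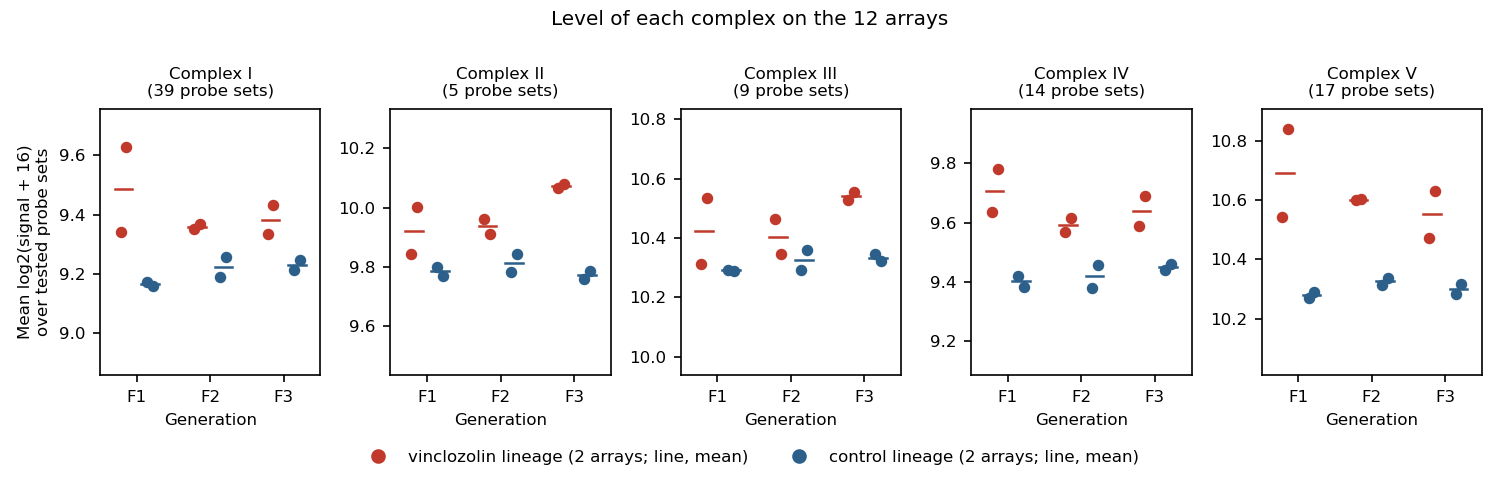
Mean log2(signal + 16) over the tested probe sets of each complex (y axis) on each of the 12 arrays, by generation (x axis), with vinclozolin arrays in red and control arrays in blue; the short lines are group means of 2 arrays, and the y axes do not start at 0 but each spans 0.9. Both vinclozolin arrays of a generation lie above both of its controls in every panel except complex III in F2, and F1 vinclozolin replicate 2 is the highest array in complexes I, IV and V.

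The mean level of each complex on each array shows the same order. Averaged over its 17 tested probe sets, complex V stood at 10.54 and 10.84 on the F1 vinclozolin arrays, against 10.27 and 10.29 on the F1 control arrays. In F2 complex V stood at 10.60 and 10.60 on the vinclozolin arrays, against 10.31 and 10.34 on the control arrays. In F3 it stood at 10.47 and 10.63 on the vinclozolin arrays, against 10.28 and 10.32 on the control arrays. The vinclozolin and control arrays of complex V thus did not overlap in any generation, and the 6 control arrays lay between 10.27 and 10.34. The differences of the group means, vinclozolin minus control, were 0.41 in F1, 0.28 in F2 and 0.25 in F3 for complex V. They were 0.32, 0.14 and 0.15 for complex I, and 0.30, 0.17 and 0.19 for complex IV. For complex II they were 0.14, 0.12 and 0.30 and for complex III 0.13, 0.08 and 0.21, with F3 the highest of the 3 in both. In complex III, 1 F2 vinclozolin array (10.35) lay below 1 F2 control array (10.36). These are descriptions of chosen genes, with no test.

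**Figure D2:**
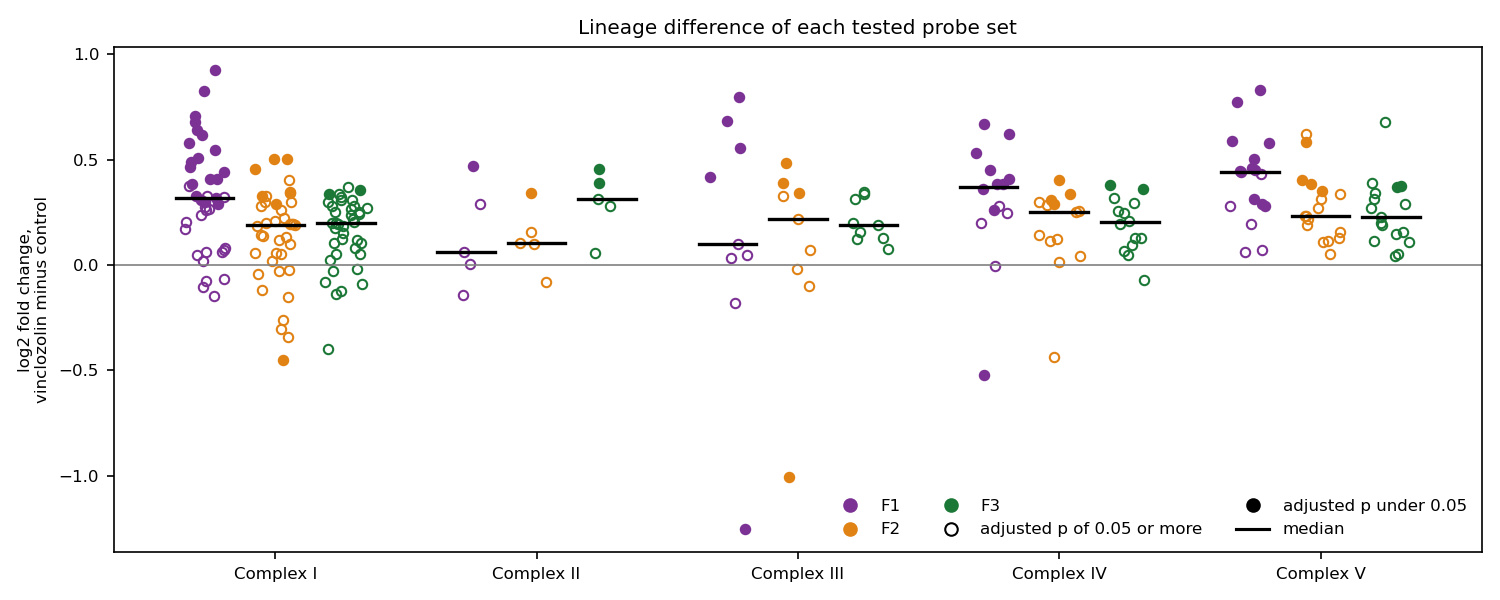
Log2 fold change, vinclozolin minus control (y axis), of each of the 84 tested member probe sets, by complex (x axis) and generation (colour); filled points passed the test and black bars are medians. The medians lie between 0.06 and 0.44, with the F1 medians of complexes II and III falling below 0 under quantile and cyclic loess normalization; all points of complex V lie above 0 on the deposited scale, with some below it under those normalizations, and the lowest points are a probe set of Uqcrc2 in F1 and F2.

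The promoters of the members were compared with all promoters, and those of some members are shown by letter. RefSeq promoters (build GRCr8, 250 bases before to 50 after the gene start) were matched by symbol for 72 of the 80 genes. The 4 with the smallest adjusted p in the mean contrast among matched genes are shown to let their letters be compared, and Ndufs6 was added after its matches were seen, because it held 4 of the 5 kinds of motif searched, more than any other member. Capitals mark matches on either strand to GCGCANGCG (the NRF1 motif), CCGGAAGT (the ETS motif), AAGATGGCG (the YY1 motif), GGGCGG (the SP1 motif) or TATAAA (the TATA motif); no overlap between different motifs was excluded. Nuclear respiratory factor 1 (NRF1), ETS-family factors and YY1 are known regulators of nuclear genes for mitochondrial proteins.
Atp5f1e, chr3:183680123-183680422, minus strand: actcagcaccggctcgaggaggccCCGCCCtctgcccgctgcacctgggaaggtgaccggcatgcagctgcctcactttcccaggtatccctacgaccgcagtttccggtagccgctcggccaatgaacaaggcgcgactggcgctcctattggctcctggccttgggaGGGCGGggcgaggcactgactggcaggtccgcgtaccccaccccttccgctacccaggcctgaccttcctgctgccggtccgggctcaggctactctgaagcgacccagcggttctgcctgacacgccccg
Ndufb3, chr9:67623167-67623466, plus strand: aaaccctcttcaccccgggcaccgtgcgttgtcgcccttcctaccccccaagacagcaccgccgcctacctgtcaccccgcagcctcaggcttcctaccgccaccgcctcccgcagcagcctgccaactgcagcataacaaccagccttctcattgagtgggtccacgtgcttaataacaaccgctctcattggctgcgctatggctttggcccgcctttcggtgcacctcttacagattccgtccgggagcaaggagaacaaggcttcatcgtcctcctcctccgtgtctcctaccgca
Ndufb5, chr2:117447355-117447654, plus strand: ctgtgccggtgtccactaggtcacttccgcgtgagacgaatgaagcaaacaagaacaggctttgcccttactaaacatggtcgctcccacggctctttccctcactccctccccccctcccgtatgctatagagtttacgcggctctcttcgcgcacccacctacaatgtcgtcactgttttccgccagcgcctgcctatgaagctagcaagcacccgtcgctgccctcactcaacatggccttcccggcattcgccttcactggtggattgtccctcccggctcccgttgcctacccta
Uqcr10, chr14:83791865-83792164, minus strand: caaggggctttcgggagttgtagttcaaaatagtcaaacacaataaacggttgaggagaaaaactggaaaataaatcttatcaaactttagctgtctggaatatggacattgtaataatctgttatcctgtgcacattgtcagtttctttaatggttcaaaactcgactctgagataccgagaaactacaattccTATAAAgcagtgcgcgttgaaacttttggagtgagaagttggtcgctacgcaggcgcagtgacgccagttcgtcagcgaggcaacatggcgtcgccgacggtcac
Ndufs6, chr1:31797150-31797449, plus strand: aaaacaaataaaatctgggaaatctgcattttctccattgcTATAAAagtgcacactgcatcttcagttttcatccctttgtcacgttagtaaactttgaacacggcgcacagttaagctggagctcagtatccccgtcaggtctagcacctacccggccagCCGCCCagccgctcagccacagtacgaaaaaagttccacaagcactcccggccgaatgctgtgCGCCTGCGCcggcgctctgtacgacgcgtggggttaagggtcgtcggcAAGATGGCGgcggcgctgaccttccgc

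The Atp5f1e window held 2 SP1 matches, the Uqcr10 window 1 TATA match, and the Ndufb3 and Ndufb5 windows none. The Ndufs6 window held a YY1 match beginning 23 bases after the start, an NRF1 match beginning 25 bases before it, and 1 SP1 and 1 TATA match farther upstream. Over all matched members, 17 of 72 promoters (23.6%) held the NRF1 motif, against 6.26% of all 27457 promoters. The YY1 motif was in 10 of 72 (13.9%), against 1.93% of all promoters, and the ETS motif in 8 of 72 (11.1%), against 4.01%. The SP1 motif was in 31 of 72 (43.1%), against 34.9%, and the TATA motif in 8 of 72 (11.1%), against 14.3%. By complex, the NRF1 motif was in 6 of 15 promoters of complex V, 8 of 34 of complex I, 1 of 13 of complex IV, 1 of 6 of complex III and 1 of 4 of complex II. Among members that rose in the mean contrast 13 of 51 held it (25.5%), and among members called in neither direction 4 of 20 (20.0%). A match is a description of letters, and no match says only that these letters are not in the window.

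Complex I had the most members, and its accessory subunits made up most of its calls. Of its 39 tested probe sets, 20 rose and 0 fell in F1 (0 also at an unadjusted p under 0.05), 7 rose and 1 fell in F2, and 2 rose in F3. Calls of higher made up 51.3%, 17.9% and 5.13% in F1, F2 and F3, against 9.41%, 4.7% and 1.05% of all tested probe sets. Of all tested probe sets, 13.7% fell in F1 and 9.65% in F2. The median log2 fold changes of complex I were 0.32 in F1, 0.19 in F2 and 0.20 in F3. Without F1 control replicate 2 the F1 count was 10, and the F1 median was 0.49 and 0.15 without F1 vinclozolin replicates 1 and 2. The F2 count was 17 with either F1 vinclozolin array left out, 1 without F2 control replicate 1, and 3 with any other F2 array left out. The F3 count was 14 with either F1 vinclozolin array left out and 0 with any control or either F3 vinclozolin array left out. Ndufb5, an accessory subunit of the membrane arm, had signals of 1489.5 and 2006 on the F1 vinclozolin arrays, against 986 and 955 on the F1 control arrays. In F2 Ndufb5 had 1531 and 1455 on the vinclozolin arrays and 1016 and 1159 on the control arrays. In F3 Ndufb5 had 1293 and 1464 on the vinclozolin arrays and 1079.7 and 1137 on the control arrays. All 6 vinclozolin arrays were above all 6 control arrays. The log2 fold change of Ndufb5 was 0.82 ± 0.12 in F1 (SE; adjusted p = 0.000192), 0.45 ± 0.12 in F2 (adjusted p = 0.0184) and 0.31 ± 0.12 in F3 (adjusted p = 0.171). With any 1 array left out Ndufb5 was still called in F1, and the F2 call was lost without F2 control replicate 1 or either F2 vinclozolin array.

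Other accessory subunits of complex I moved in the same direction. Ndufb3, a small subunit of the membrane arm, had 1636 and 2053 on the F1 vinclozolin arrays, against 1219 and 1288 on the F1 control arrays. Its log2 fold changes were 0.54 in F1, 0.50 in F2 and 0.32 in F3 (adjusted p = 0.001, 0.00313 and 0.0857). The F1 and F2 calls of Ndufb3 held under all 24 alternatives run. Ndufa8, an accessory subunit of the intermembrane-space side, rose by 0.51 in F1 and 0.50 in F2, with 0.28 in F3 (adjusted p = 0.00264, 0.00498 and 0.158). Ndufa4, counted here by its symbol but also placed with complex IV, had 1959.9 and 2344 on the F1 vinclozolin arrays, against 1737 and 1767 on the F1 control arrays. In F3 Ndufa4 had 2108 and 2212 on the vinclozolin arrays and 1659 and 1713 on the control arrays. Its log2 fold changes of 0.29, 0.29 and 0.35 in F1, F2 and F3 all passed the test (adjusted p = 0.0239, 0.0335 and 0.0366). Ndufb11, another membrane-arm subunit, was the other complex I member called in F3, at 0.34 (adjusted p = 0.0396), after 0.38 in F1 (adjusted p = 0.0037) and 0.19 in F2. Among these calls, those of Ndufa4 in F2 and F3 and of Ndufb11 in F3 were lost when any 1 control or either vinclozolin array of that generation was left out. In F1, Ndufa4 was 0.16 and not called without vinclozolin replicate 2, and its call was also lost without either control. The F1 call of Ndufb11 was lost without F1 control replicate 2, and the F2 call of Ndufa8 without F2 control replicate 1.

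The largest F1 value in complex I depended in size on 1 array. Ndufa7, a subunit of the matrix arm, had 989 and 1917 on the F1 vinclozolin arrays, against 701 and 736 on the F1 control arrays. The log2 fold change was 0.92 ± 0.19 (SE; adjusted p = 0.00297), with 0.40 in F2 and 0.31 in F3. Without F1 vinclozolin replicate 2 it was 0.45 and without replicate 1 it was 1.40, and it passed the test in F1 in both fits. Ndufb2, also in the membrane arm, had 1320.5 and 1855 on the F1 vinclozolin arrays, against 930.4 and 979 on the F1 control arrays, a log2 fold change of 0.70 (adjusted p = 0.00202), and Ndufc1, again of the membrane arm, had 0.68 (adjusted p = 0.000394). Both passed the test with any 1 array left out, with Ndufb2 at 0.46 without F1 vinclozolin replicate 2. Ndufa4l2, a relative of Ndufa4 induced by low oxygen, was dim and had 0.24, 0.06 and -0.40, none called.

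The redox core of complex I had fewer calls. Its 6 measured subunits hold the flavin and most of the iron-sulfur clusters, and 1 of the 6 (Ndufs7) rose in F1 and 0 in F2 or F3 (1 and 2 at an unadjusted p under 0.05), with medians of 0.23, 0.04 and 0.13. Of all tested probe sets, 9.41%, 4.7% and 1.05% rose in F1, F2 and F3. A single call among 6 is too few to be read against these shares. The median of the redox core in F2 turned to -0.02 under quantile and cyclic loess normalization. Ndufs1, the largest subunit of complex I, had 730.1 and 735 on the F1 vinclozolin arrays, against 756 and 780.2 on the F1 control arrays. Its log2 fold changes were -0.07, -0.15 and -0.03, with 95% confidence intervals of -0.23 to 0.10, -0.32 to 0.01 and -0.19 to 0.14. The vinclozolin arrays of Ndufs1 were the lower ones in each generation, by less than the test's threshold. Ndufv1, which binds NADH and the flavin, had 0.06, -0.03 and -0.02, and Ndufv2 had 0.20, 0.06 and 0.21. Ndufs7, which carries the last iron-sulfur cluster before ubiquinone, had 941 and 1032 on the F1 vinclozolin arrays, against 805 and 769 on the F1 control arrays. Its log2 fold changes were 0.32, 0.20 and 0.30, of which the first passed the test (adjusted p = 0.0122) and was no longer called with either F1 control left out. Ndufs3 had 0.27, 0.19 and 0.27 and Ndufs8 0.27, 0.02 and 0.05, none of them past the threshold. Of the 12 probe sets of accessory matrix-arm subunits, 6 rose in F1 (median 0.37), and of the 18 of the membrane arm 12 rose (median 0.38). Without F1 vinclozolin replicate 2 these counts were 5 and 8 with medians of 0.20 and 0.21, and the redox core had 1 with a median of 0.10. Without F1 vinclozolin replicate 1 the redox core had 4 of 6 higher in F1 with a median of 0.39, and the membrane arm a median of 0.58. Without F1 control replicate 2 the redox core had 0, the matrix arm 3 and the membrane arm 7 higher. The F2 median of the redox core was -0.04 without F2 vinclozolin replicate 2 and 0.11 without replicate 1, and its F3 median was 0.03 and 0.21 without F3 vinclozolin replicates 2 and 1.

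Complex II has 4 subunits, all encoded in the nucleus, and each was measured. Of 5 probe sets, 1 rose in F1, 1 in F2 and 2 in F3 (9.41%, 4.7% and 1.05% of all tested). In the mean contrast 4 rose (14.1% of all tested). The single calls in F1 and F2 among 5 probe sets are too few to be read against these shares. The F1 count was 2 without F1 vinclozolin replicate 1, the F2 count 0 with any F2 array left out, and the F3 count 4 with either F1 vinclozolin array left out, 0 without F3 vinclozolin replicate 2 or either F3 control, and 1 with any F1 or F2 control or F3 vinclozolin replicate 1 left out. Sdhb, the iron-sulfur subunit, had 1756 and 2105 on the F1 vinclozolin arrays, against 1351 and 1421 on the F1 control arrays. In F2 Sdhb had 1819 and 1859 on the vinclozolin arrays and 1444 and 1455 on the control arrays. In F3 Sdhb had 1697 and 1827 on the vinclozolin arrays and 1411 and 1417 on the control arrays. The 6 vinclozolin arrays were all above the 6 control arrays, with log2 fold changes of 0.47 ± 0.09, 0.34 ± 0.09 and 0.31 ± 0.09 (SE; adjusted p = 0.00146, 0.018 and 0.0682). Sdhb kept its F1 call with any 1 array left out, and the F2 call was lost with any 1 of the 4 F2 arrays left out. Sdha, the flavin subunit that holds the active site, had 1096 and 1013 on the F1 vinclozolin arrays, against 1178 and 1154 on the F1 control arrays. Its log2 fold changes were -0.14, -0.08 and 0.06, none past the threshold.

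Both membrane anchors of complex II were called in F3 and not in F1 or F2. Sdhc had 1030.1 and 1146 on the F3 vinclozolin arrays, against 812 and 765 on the F3 control arrays. In F1 Sdhc had 835 and 928 on the vinclozolin arrays and 842 and 843 on the control arrays, which overlapped. The log2 fold changes of Sdhc were 0.06, 0.10 and 0.46 ± 0.09 in F1, F2 and F3 (SE of the last; adjusted p in F3 = 0.0133). Sdhd had 2 probe sets. Of these 1371296_at had 0.00, 0.15 and 0.39 in the 3 generations (adjusted p in F3 = 0.0382), and 1388294_at had 0.29, 0.10 and 0.28. The F1 minus F3 difference of differences was -0.39 ± 0.12 for Sdhc (SE; adjusted p = 0.0914) and -0.38 ± 0.13 for the first Sdhd probe set (adjusted p = 0.123), so a dependence on generation was not shown for either. The F3 call of Sdhc was lost without F3 vinclozolin replicate 2 or either F3 control, and that of Sdhd when any 1 control or either F3 vinclozolin array was left out. The F1 median of complex II, 0.06, turned to -0.03 under cyclic loess and -0.02 under quantile normalization, and was -0.012 and 0.14 without F1 vinclozolin replicates 2 and 1.

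**Figure D3:**
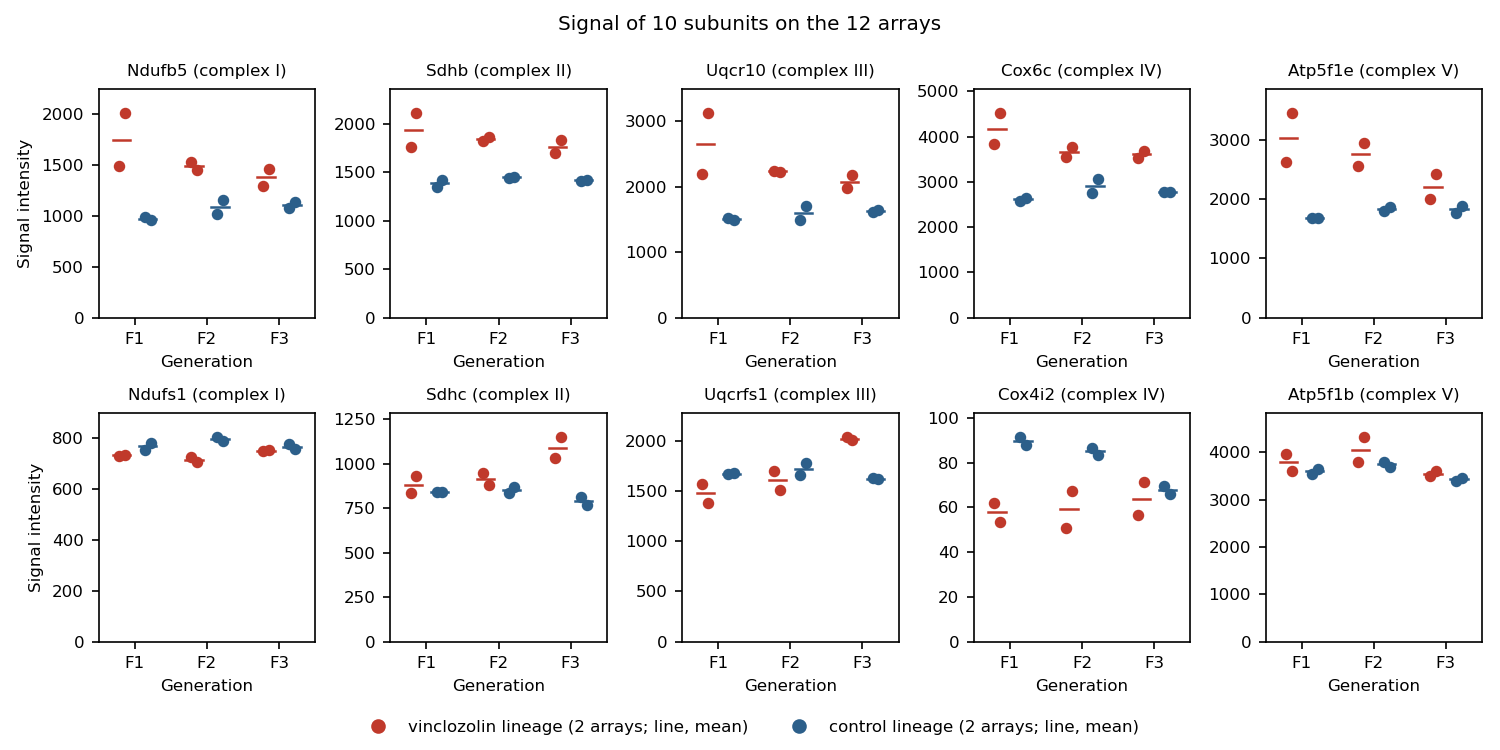
Signal intensity (y axis, from 0) of 10 subunits, 2 per complex, on the 12 arrays by generation (x axis), with vinclozolin arrays in red, control arrays in blue and group means as short lines. The upper row shows 5 members whose 6 vinclozolin arrays all lie above the 6 control arrays; the lower row shows Ndufs1, Sdhc, Uqcrfs1, Cox4i2 and Atp5f1b, whose lineages overlap in at least 1 generation or whose vinclozolin arrays are lower.

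In complex III the small subunits rose in F1 and F2, and no redox or core subunit was called higher in a single generation. Role and size cannot be told apart in these groups, and the part of length was not tested. All 4 small subunits (Uqcr10, Uqcr11, Uqcrh and Uqcrq) rose in F1 and 3 of 4 in F2, with medians of 0.62 and 0.36, and 0 of 4 in F3 (2 at an unadjusted p under 0.05), with a median of 0.25. Of the 5 probe sets of the redox and core subunits (Cyc1, Uqcrfs1, Uqcrc1 and Uqcrc2), 0 rose in any single generation (0, 1 and 1 at an unadjusted p under 0.05), and 1 fell in F1 and F2. Of all tested probe sets, 9.41% rose and 13.7% fell in F1, 4.7% and 9.65% in F2, and 1.05% and 2.06% in F3. The F1 median of the redox and core subunits was 0.03 and turned to -0.10 under cyclic loess and -0.09 under quantile normalization and without F1 vinclozolin replicate 2. Among the small subunits the F2 count was 0 without F2 control replicate 1 or F2 vinclozolin replicate 2 and 1 without F2 vinclozolin replicate 1, and the F3 count was 2 with either F1 vinclozolin array left out. Among the redox and core subunits, 2 fell in F1 without F1 vinclozolin replicate 1, 1 rose in F2 without F2 vinclozolin replicate 1, and 1 rose in F3 with either F1 vinclozolin array left out. Uqcr10, a small membrane subunit, had 2201 and 3118 on the F1 vinclozolin arrays, against 1517 and 1491 on the F1 control arrays. In F2 Uqcr10 had 2235 and 2229 on the vinclozolin arrays and 1484 and 1712 on the control arrays. In F3 Uqcr10 had 1974 and 2179.9 on the vinclozolin arrays and 1613 and 1649 on the control arrays. The lineages of Uqcr10 were apart in each generation, and the log2 fold changes were 0.79 ± 0.12, 0.48 ± 0.12 and 0.34 ± 0.12 (SE; adjusted p = 0.000367, 0.0172 and 0.145). Uqcrh, the hinge protein that contacts cytochrome c1, had 0.68, 0.34 and 0.34, the first 2 past the threshold (adjusted p = 0.000458 and 0.0495). Uqcr11 had 0.55, 0.39 and 0.16, again with F1 and F2 called (adjusted p = 0.00117 and 0.0183). Uqcrq, also among the small subunits, had 0.42 in F1 (adjusted p = 0.043), which was 0.11 without F1 vinclozolin replicate 2 and 0.72 without replicate 1, and its call was lost with any 1 array other than F1 vinclozolin replicate 1 left out. The F1 calls of Uqcr10, Uqcrh and Uqcr11 were kept with any 1 array left out, with Uqcrh at 0.45 without F1 vinclozolin replicate 2. In F2 the calls of Uqcr10, Uqcrh and Uqcr11 were lost without F2 control replicate 1 or F2 vinclozolin replicate 2, that of Uqcr10 also without F2 vinclozolin replicate 1, and that of Uqcrh with any 1 array other than the F1 vinclozolin arrays left out. Cyc1, cytochrome c1 itself, had 1415 and 1553 on the F1 vinclozolin arrays, against 1481 and 1392 on the F1 control arrays, and log2 fold changes of 0.05, -0.02 and 0.07. Uqcrc1, a core protein, had 0.10, 0.22 and 0.13.

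A pair of large subunits of complex III had a called difference between F1 and F3. Uqcrfs1, the Rieske iron-sulfur protein, had 1566 and 1382 on the F1 vinclozolin arrays, against 1666 and 1674 on the F1 control arrays. In F2 Uqcrfs1 had 1698 and 1511 on the vinclozolin arrays and 1659 and 1775 on the control arrays. In F3 Uqcrfs1 had 2032 and 2006 on the vinclozolin arrays and 1624 and 1622 on the control arrays. The vinclozolin arrays were the lower ones in F1 and the higher ones in F3, without overlap in either, and overlapped the controls in F2. The log2 fold changes of -0.18 and 0.31 were not called within F1 and F3 (adjusted p = 0.141 and 0.0598). Their difference, F1 minus F3, was -0.49 ± 0.12 (SE; adjusted p = 0.0301), a negative difference like that of Uqcrc2 below. The F test over all 3 generations gave Uqcrfs1 an adjusted p of 0.0624, which did not pass. The F1 minus F3 call of Uqcrfs1 was lost with any 1 control or either F3 vinclozolin array left out (adjusted p of 0.0504 to 0.136), without the filter or the variance trend, under median centring, and with the brightest probe set of each gene only.

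Uqcrc2, a core protein, gave different values on its 2 probe sets. Probe set 1382280_at had 222 and 249 on the F1 vinclozolin arrays, against 535 and 636 on the F1 control arrays. In F2 it had 499.7 and 222 on the vinclozolin arrays and 739 and 641 on the control arrays. In F3 it had 815 and 698 on the vinclozolin arrays and 715 and 606 on the control arrays, which overlapped. The log2 fold changes were -1.26 ± 0.24, -1.01 ± 0.24 and 0.19 ± 0.24 (SE; adjusted p = 0.00149, 0.0108 and 0.731). This was the 1 member called by the F test of dependence on generation (adjusted p = 0.0492), with an F1 minus F3 difference of -1.45 ± 0.33 (adjusted p = 0.0233). The F test call of Uqcrc2 was lost with any 1 control or either F3 vinclozolin array left out (adjusted p of 0.0851 to 0.273). The F1 minus F3 call was lost with either F1 control, either F3 control or F3 vinclozolin replicate 1 left out (0.0519 to 0.123), and without the filter or the variance trend. The F1 call was kept with any 1 array left out. The F2 value was -0.45 and not called without F2 vinclozolin replicate 2, -1.56 and called without replicate 1, and not called without F2 control replicate 1. Probe set 1373362_at had 1379 and 1722 on the F1 vinclozolin arrays, against 1521 and 1488 on the F1 control arrays, with log2 fold changes of 0.03, 0.07 and 0.20, none called. Which bases of the transcript each probe set reads was not analysed here. The beta-actin ratio, given above, was lowest in F1 vinclozolin and second lowest in F2 vinclozolin, as were the values of 1382280_at; its part in them was not tested.

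Complex IV had 9 of 14 tested probe sets higher and 1 lower in F1, 4 higher in F2 and 2 higher in F3, with medians of 0.37, 0.25 and 0.20. Of all tested probe sets, 9.41% were higher and 13.7% lower in F1, and 4.7% and 1.05% higher in F2 and F3. The F1 count of higher in complex IV was 4 and 5 without F1 control replicates 1 and 2. The F2 count was 7 with either F1 vinclozolin array left out, 0 without F2 control replicate 1 or F2 vinclozolin replicate 2, 1 without F2 control replicate 2, and 2 with any F1 or F3 control left out. The F3 count was 5 with either F1 vinclozolin array left out and 0 with any F1 control or F3 array left out. Cox6c, a small membrane subunit, had 3839 and 4510.2 on the F1 vinclozolin arrays, against 2583 and 2637 on the F1 control arrays. In F2 Cox6c had 3550.3 and 3773 on the vinclozolin arrays and 2748 and 3057 on the control arrays. In F3 Cox6c had 3537 and 3687 on the vinclozolin arrays and 2786 and 2766 on the control arrays. All 6 vinclozolin arrays were above all 6 control arrays. The log2 fold changes of 0.67 ± 0.09, 0.33 ± 0.09 and 0.38 ± 0.09 all passed the test (SE; adjusted p = 7.96e-05, 0.017 and 0.0286), and Cox6c had the smallest adjusted p of all members in the mean contrast (7.75e-06). Cox5b, a matrix-side subunit that binds zinc, had 1502 and 1581 on the F3 vinclozolin arrays, against 1182 and 1216 on the F3 control arrays. It was called in F1 (0.26, adjusted p = 0.0299) and F3 (0.36, adjusted p = 0.0284) and had 0.14 in F2. Cox7a2l, which helps join complexes III and IV into supercomplexes, rose in F1 by 0.53 (adjusted p = 0.00162), with 0.29 and 0.25 in F2 and F3. Cox7b had 2274 and 3752 on the F1 vinclozolin arrays, against 1984 and 1804 on the F1 control arrays, a log2 fold change of 0.62 (adjusted p = 0.00927) in which replicate 2 was far above replicate 1. Cox5a, which like Cox5b faces the matrix, rose in F1 and F2 by 0.41 and 0.40 (adjusted p = 0.0314 and 0.0491). The forms Cox6a1 and Cox6b1, found in most tissues, had F1 values of 0.38 and 0.45 (adjusted p = 0.0031 and 0.0064), and Cox7c had 0.36 (adjusted p = 0.00923). Cox8a, also found in most tissues, had 0.00, 0.04 and 0.09 and passed the test in none. Cox6c kept its F1 call with any 1 array left out. Its F2 call was lost without F2 control replicate 1 or F2 vinclozolin replicate 2, and its F3 call, like that of Cox5b, with any 1 F3 array or F1 control left out.

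Several F1 values of complex IV were smaller without F1 vinclozolin replicate 2. They were then 0.35 for Cox7a2l, 0.29 for Cox6b1, 0.26 for Cox7b (0.98 without replicate 1) and 0.21 for Cox7c, all still called, while Cox5a was no longer called. With an F1 control left out, calls were lost for Cox5a, Cox5b and Cox7c (either control), Cox6a1 and Cox6b1 (replicate 1) and Cox7b (replicate 2). The F1 call of Cox5b was also lost with either F3 control left out, and the F2 call of Cox5a with any 1 control or F2 vinclozolin replicate 2 left out.

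The paired isoforms of subunit 4 of complex IV differed in direction. Cox4i1, the form of most tissues, had 3479.7 and 3879 on the F1 vinclozolin arrays, against 2757 and 2864 on the F1 control arrays, with log2 fold changes of 0.38, 0.29 and 0.19 (adjusted p = 0.00155, 0.0162 and 0.162). The F1 call of Cox4i1 was kept with any 1 array left out, and the F2 call was lost without F2 vinclozolin replicate 2 or either F2 control. Cox4i2, a form known from lung, had 62 and 53.5 on the F1 vinclozolin arrays, against 91.3 and 88 on the F1 control arrays. In F2 Cox4i2 had 50.9 and 67.3 on the vinclozolin arrays and 86.7 and 83.5 on the control arrays. In F3 Cox4i2 had 56.8 and 71.2 on the vinclozolin arrays and 69.4 and 66 on the control arrays. The vinclozolin arrays of Cox4i2 were below the controls in F1 and F2 and on both sides of them in F3. Cox4i2 fell by 0.52 on the log2 scale in F1 (adjusted p = 0.0201); the values in F2 and F3 were -0.44 and -0.07 (adjusted p = 0.0639 and 0.854). The F1 call of Cox4i2 was lost without F1 vinclozolin replicate 2 or either F1 control. The other isoforms named for restricted tissues were not called in any single generation: Cox6b2 (known from testis) had 0.20, 0.11 and 0.13, Cox7b2 0.28, 0.30 and 0.32, and Cox7a1 (known from heart and muscle) 0.25, 0.12 and 0.05. Cox6a2 and Cox8b, known from heart and skeletal muscle, were below the filter, and the summed signal of the striated muscle markers was 348 to 479 on the vinclozolin arrays and 361 to 412 on the control arrays.

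Complex V had no member called lower. All 17 tested probe sets had a positive log2 fold change in each of the 3 generations on the deposited scale, but 15 under quantile and 14 under cyclic loess normalization. Under these scalings Atp5f1b was -0.084 and -0.13 in F1 and -0.13 and -0.12 in F3, Atp5f1a was -0.078 and -0.10 in F1, and under cyclic loess Atp5mc3, of the membrane ring, was -0.044 in F2 and -0.039 in F3, none of them called. Atp5me was -0.057 in F3 without F3 vinclozolin replicate 2. In F1, 11 of 17 rose, in F2 4, in F3 2 and in the mean contrast 16, and 0 fell in any of them (0 also at an unadjusted p under 0.05). Of all tested probe sets, 9.41%, 4.7%, 1.05% and 14.1% rose in F1, F2, F3 and the mean contrast. The complex V medians were 0.44, 0.23 and 0.23 in F1, F2 and F3. The F1 count was 6 and 7 without F1 control replicates 1 and 2, with a median of 0.28 without F1 vinclozolin replicate 2. The F2 count was 9 with either F1 vinclozolin array left out, 1 without F2 control replicate 1 or F2 vinclozolin replicate 2, and 2 without F2 control replicate 2. The F3 count was 6 with either F1 vinclozolin array left out, 0 with any F3 array left out and 1 with any other array left out, and the F3 median was 0.36 and 0.14 without F3 vinclozolin replicates 1 and 2. Atp5f1e, the epsilon subunit of the central stalk, had 2630.1 and 3451 on the F1 vinclozolin arrays, against 1691 and 1687 on the F1 control arrays. In F2 Atp5f1e had 2566 and 2956 on the vinclozolin arrays and 1794 and 1869.7 on the control arrays. In F3 Atp5f1e had 2011 and 2422 on the vinclozolin arrays and 1768 and 1889 on the control arrays. The lineages did not overlap, and the log2 fold changes were 0.83 ± 0.12, 0.58 ± 0.12 and 0.27 ± 0.12 (SE; adjusted p = 0.000183, 0.00431 and 0.234). The F1 minus F3 difference of Atp5f1e, 0.56 ± 0.17 (SE), had an adjusted p of 0.0724. Atp5f1e kept its F1 call with any 1 array left out, and the F2 call was lost without F2 control replicate 1 or F2 vinclozolin replicate 2.

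Within complex V the alpha and beta subunits of the head had low values beside the small subunits. The part of subunit length in this was not tested. Atp5f1b, the catalytic beta subunit, had 3978 and 3608 on the F1 vinclozolin arrays, against 3549 and 3654 on the F1 control arrays, with log2 fold changes of 0.07, 0.11 and 0.05 and 95% confidence intervals of -0.10 to 0.24, -0.06 to 0.28 and -0.12 to 0.22. Atp5f1a, the alpha subunit, had 0.06, 0.11 and 0.16, none called within a generation. Its mean of 0.11 passed the test (adjusted p = 0.0429) but turned to -0.022 under cyclic loess normalization. The gamma and delta subunits of the central stalk, Atp5f1c and Atp5f1d, rose in F1 by 0.31 and 0.28 (adjusted p = 0.0399 and 0.0408). In the peripheral stalk, which holds the head still, Atp5po had 2031 and 3192 on the F1 vinclozolin arrays, against 1505 and 1465 on the F1 control arrays, a log2 fold change of 0.77 (adjusted p = 0.0011). Atp5pb, also of the peripheral stalk, had 2647 and 2720.0 on the F3 vinclozolin arrays, against 2024 and 2112 on the F3 control arrays. It was called in F2 (0.35) and F3 (0.37) and not in F1 (0.19), with adjusted p-values of 0.00769, 0.0198 and 0.0869. Atp5pd was called in F1 (0.45, adjusted p = 0.00301) and F3 (0.37, adjusted p = 0.0465). In the membrane part, 5 of 6 probe sets rose in F1 (3 with either F1 control left out), with Atp5mg at 0.58 and again at 0.40 in F2 (adjusted p = 0.00182 and 0.0262). Atp5mf and Atp5me, other membrane subunits, had F1 values of 0.59 and 0.45 (adjusted p = 0.00341 and 0.0107). Atp5if1, the inhibitor that binds the head when the proton gradient fails, rose in F1 by 0.50 on its bright probe set (adjusted p = 0.00388). That probe set had 0.31 and 0.34 in F2 and F3, neither called. The dim probe set 1371229_at of Atp5if1 (signal 14.1 to 49.7) had 0.44, 0.62 and 0.68 in F1, F2 and F3, none called. Its mean of 0.58 was called higher and was the largest of all members.

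The F1 values of several complex V subunits also rested on F1 vinclozolin replicate 2. Without it, Atp5f1c was 0.13 (0.50 without replicate 1), Atp5f1d 0.17 and Atp5me 0.28, none of them called, while Atp5po at 0.45, Atp5mf at 0.33 and Atp5if1 at 0.32 were still called. The calls of Atp5f1c and Atp5f1d were also lost with any 1 control or either F3 vinclozolin array left out, and those of Atp5me and Atp5pd without F1 control replicate 1. Atp5mg kept its F1 call with any 1 array left out, and its F2 call was lost without F2 vinclozolin replicate 2 or either F2 control. The calls of Atp5pb were lost without F2 control replicate 1 in F2 and with any 1 of the 4 F3 arrays left out in F3. The F3 call of Atp5pd was lost with any 1 array other than the F1 vinclozolin arrays left out.

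**Figure D4:**
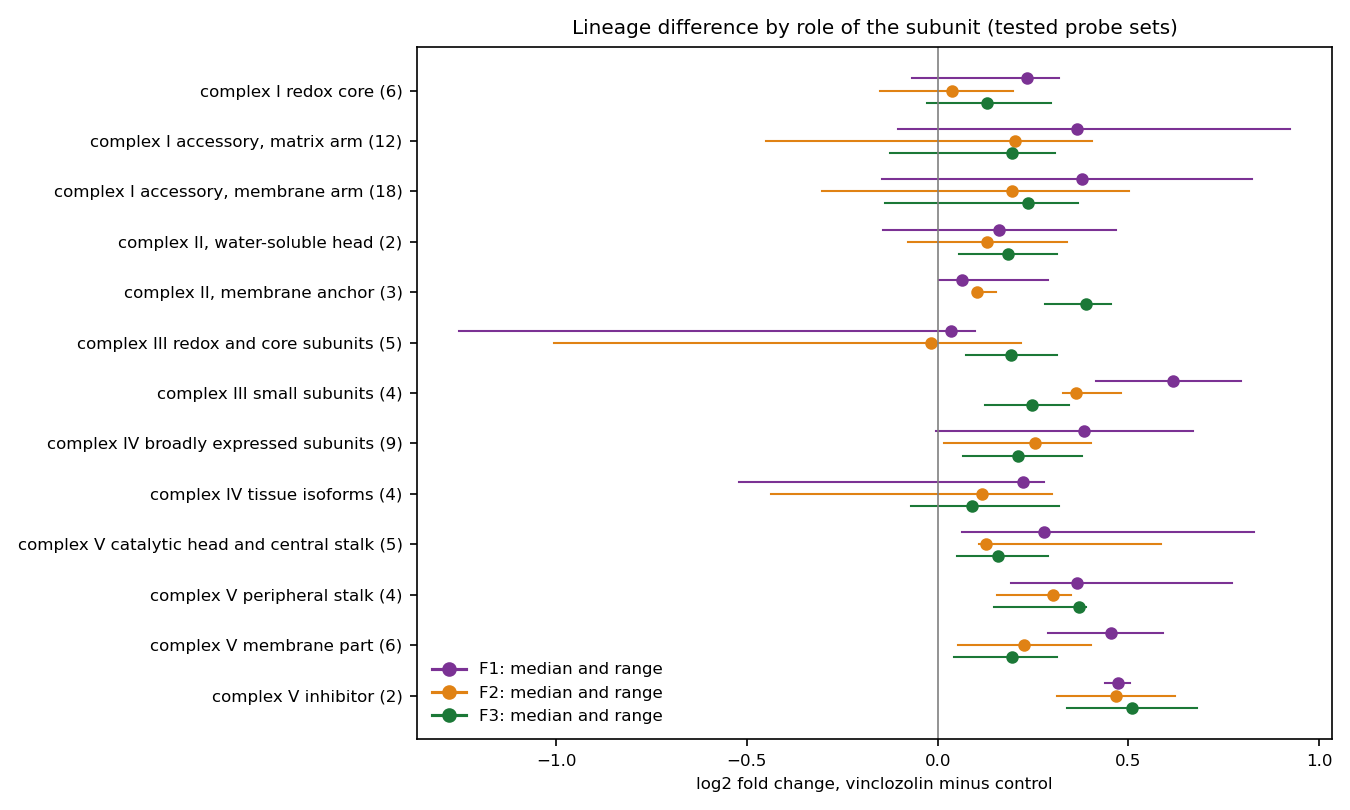
Median (points) and range (lines) of the log2 fold change, vinclozolin minus control (x axis), for 13 role groups of subunits (y axis, with the number of tested probe sets), by generation (colour). The small subunits of complex III have an F1 median of 0.62 while its redox and core subunits have 0.03 (below 0 under quantile and cyclic loess normalization) with a range down to -1.26, and both groups lie close together in F3.

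Grouped by role, a chosen set of redox, core and catalytic subunits of complexes I, II, III and V had lower medians than all other members. From complex II this core group held Sdha and Sdhb, and from complex V Atp5f1a and Atp5f1b. The others include the 14 tested probe sets of complex IV, of which 9 rose in F1. They also include Sdhc and Sdhd, both called higher in F3, the latter on 1 probe set. Atp5f1c, Atp5f1d and Atp5f1e of the central stalk, called higher in F1, were counted there too. The counts and medians below hold for this split, and no other split was tested. Of the 15 tested probe sets of the core group, for 14 genes, 2 rose and 1 fell in F1 (Sdhb and Ndufs7 up, Uqcrc2 down), with a median of 0.06. Of all tested probe sets, 9.41% rose and 13.7% fell in F1, and 4.7% and 1.05% rose in F2 and F3. The core group's few calls of higher are near these shares. Of the 69 other member probe sets, 43 rose and 1 fell in F1, with a median of 0.38. In F2 the counts were 1 of 15 higher, with a median of 0.06, and 18 of 69 higher, with a median of 0.23. In F3 they were 0 of 15 (5 at an unadjusted p under 0.05), with a median of 0.16, and 8 of 69, with a median of 0.22. Without F1 vinclozolin replicate 2 the F1 medians were 0.05 and 0.27, with 2 of 15 and 32 of 69 higher. Without F1 vinclozolin replicate 1 the F1 count of the core group was 5 of 15, and without F1 control replicates 1 and 2 the counts were 1 of 15 and 27 of 69, and 1 of 15 and 25 of 69. With either F1 vinclozolin array left out, they were 2 and 36 in F2 and 4 and 28 in F3; without F2 control replicate 1 they were 0 and 2 in F2, and with either F3 control left out 0 and 0 in F3. Under quantile and cyclic loess normalization the F1 median of the core group turned to -0.06 and -0.08, and that of the others was 0.30 and 0.29. The role groups were drawn from textbook knowledge with these results known, and the difference between them was not tested. Lengths of transcripts and proteins were not analysed, so role and length cannot be told apart here.

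Of 8 genes with more than 1 member probe set, 6 had at least 2 tested, and 4 of these gave values of opposite sign in some generation. These 4 were Uqcrc2, described with complex III, Ndufa7, Ndufa9 and Ndufv3, the last 2 named after their values were seen. Ndufa7 had 0.40 on 1375411_at and -0.45 on 1395045_at in F2, the second being called lower (adjusted p = 0.049; above the threshold in 18 of 23 alternatives). The second had signals of 49.5 and 46.6 on the F2 vinclozolin arrays and 79.1 and 64.6 on the F2 control arrays. Ndufa9 had 0.41 and 0.04 in F1 and 0.33 and -0.34 in F2 on 1388323_at and 1396282_at. Ndufv3 had 0.06 and -0.10 in F1 and -0.26 and 0.20 in F2 on 1368566_a_at and 1368567_at, none called. With the brightest probe set of each gene only, 43 members rose and 1 fell in F1, and 16 rose and 0 fell in F2.

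Genes that serve the complexes without being subunits of them are given by list, beside the shares of all tested probe sets that rose and fell, which were 9.41% and 13.7% in F1, 4.7% and 9.65% in F2, and 1.05% and 2.06% in F3. Of 56 tested probe sets of assembly factors, 14 rose and 6 fell in F1 (25.0% and 10.7%), 9 and 3 in F2 (16.1% and 5.36%), and 2 and 0 in F3 (13 and 0 at an unadjusted p under 0.05), with medians of 0.14, 0.04 and 0.13. Cox14, an assembly factor of complex IV, had 789.9 and 1005 on the F1 vinclozolin arrays, against 488 and 468 on the F1 control arrays and rose in all 3 generations, by 0.88, 0.82 and 0.60 (adjusted p = 0.000192, 0.000711 and 0.0208). Uqcc3, for complex III, rose in F2 by 0.49 and in F3 by 0.64 (adjusted p = 0.0224 and 0.0186). Lrpprc, which stabilises mitochondrial messenger RNAs, went both ways in F1: 1395338_at had -1.79 and 1373500_at 0.78 (adjusted p = 6.78e-06 and 0.000228). Cox15, which makes the heme of complex IV, fell in F1 by 0.86 on 1382155_at and 0.81 on 1397902_at.

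Of 24 probe sets of electron carriers and inner and outer membrane carriers, 3 rose and 2 fell in F1 (12.5% and 8.33%), 1 and 2 in F2 (4.17% and 8.33%), and 1 and 1 in F3. These F1 and F2 shares are near those over all tested probe sets. The channel Vdac1 had -1.62 in F1 on 1386909_a_at (adjusted p = 5.38e-06) and -0.10 on 1367706_at. Slc25a4, the ADP/ATP carrier of the inner membrane, rose in F3 by 0.29 (adjusted p = 0.0401) and had 0.11 and 0.19 in F1 and F2. Etfb, an electron-transferring flavoprotein, rose by 0.69 in F1 and 0.63 in F2 (adjusted p = 0.000755 and 0.00265), and the uncoupling protein Ucp2 fell in all 3 generations, by 0.73, 0.48 and 0.50.

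Of 20 probe sets of pyruvate dehydrogenase and the citric acid cycle, 2 rose and 3 fell in F1 (10.0% and 15.0%, near the 9.41% and 13.7% of all tested), 1 and 4 in F2 (5.0% and 20.0%, against 4.7% and 9.65%), and 0 and 0 in F3 (5 and 2 at an unadjusted p under 0.05), with medians of -0.06, 0.07 and 0.04. Citrate synthase (Cs) fell on 2 probe sets in F1, by 0.66 on 1369967_at and 0.95 on 1384201_at, and had 0.05 on another, 1375295_at. Of 27 probe sets of regulators of mitochondrial biogenesis, 0 rose in any single generation (2, 0 and 1 at an unadjusted p under 0.05 in F1, F2 and F3), and 2 fell in F1 (7.41%, against 13.7% of all tested), 2 in F2 (7.41%, against 9.65%) and 1 in F3. Gabpa, an ETS-family activator of respiratory chain genes, fell in F2 by 0.47 (adjusted p = 0.037), and Polg, the mitochondrial DNA polymerase, fell in F1 by 0.68 on 1370046_at (adjusted p = 0.0176) and had -0.26 on 1370045_at. A dim probe set of Yy1, 1381886_at, fell in each generation (-1.39, -0.82 and -0.87), while the bright 1377668_at had -0.04, 0.00 and -0.05. Of 33 probe sets of mitochondrial protein import, 12 rose and 3 fell in F1 (36.4% and 9.09%, against 9.41% and 13.7% of all tested), 2 and 2 in F2 (6.06% each, against 4.7% and 9.65%), and 1 and 0 in F3 (5 and 0 at an unadjusted p under 0.05), with medians of 0.27, 0.09 and 0.16. Tomm7, a small subunit of the outer membrane translocase, had 1849 and 2539 on the F1 vinclozolin arrays, against 1408 and 1400.5 on the F1 control arrays, a rise of 0.62 (adjusted p = 0.00195). Hspa9, the chaperone of the import motor, had -1.57 on 1370690_at and 0.59 on 1391915_at in F1, both called.

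Marker lists of cell types that the testis could hold were counted in the same way, beside 9.41% higher and 13.7% lower of all tested probe sets in F1, 4.7% and 9.65% in F2, and 1.05% and 2.06% in F3. The muscle and ovary counts, each of 0 or 1 probe set, and the single germ cell call are too few to be read against these shares. The summed signal of the erythroid list was 13236 to 17030 on the vinclozolin arrays and 10922 to 12550 on the control arrays, without overlap, and of 9 tested probe sets 6 rose and 1 fell in F1 (66.7% and 11.1%), 1 and 1 in F2 (11.1% each), and 6 and 0 in F3 (66.7% higher). The interstitial and stromal list summed to 17366 to 18657 on the vinclozolin arrays and 19712 to 20929 on the control arrays, and of 14 probe sets 1 rose and 4 fell in F1 (7.14% and 28.6%), 1 and 5 in F2 (7.14% and 35.7%), and 0 and 2 in F3 (14.3% lower; 0 and 4 at an unadjusted p under 0.05). The Leydig list summed to 14529 to 16826 on the vinclozolin arrays and 14142 to 14920 on the control arrays, and of 13 probe sets 2 rose and 6 fell in F1 (15.4% and 46.2%), 3 and 5 in F2 (23.1% and 38.5%), and 3 and 1 in F3 (23.1% and 7.69%). The Sertoli list summed to 6015 to 7497 on the vinclozolin arrays and 7006 to 7359 on the control arrays, and of 11 probe sets 1 rose and 4 fell in F1 (9.09% and 36.4%), 0 and 2 in F2 (18.2% lower; 1 and 3 at an unadjusted p under 0.05), and 0 and 0 in F3 (1 and 2 at an unadjusted p under 0.05). For 3 germ cell probe sets the sums were 221 to 350 on the vinclozolin arrays and 302 to 337 on the control arrays, with Kit lower in F1 and F2 and 0 higher (0, 0 and 1 at an unadjusted p under 0.05 in F1, F2 and F3). Of 7 tested muscle probe sets 1 rose and 1 fell in F1, 1 fell in F2 and 0 passed in F3 (2 higher and 1 lower at an unadjusted p under 0.05); Ckm, a defining muscle enzyme, lay between 1.1 and 18.7 on the 12 arrays. Of 5 ovarian probe sets 0 passed in any single generation (1 and 1 at an unadjusted p under 0.05 in F1, 0 and 2 in F2, and 0 and 0 in F3), and their sums were 177 to 210.5 on the vinclozolin arrays and 182 to 229 on the control arrays. The part of these marker values in the members' differences was not tested.

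The 3 control groups gave no call among the members: in the F test over the F1, F2 and F3 controls with limma, 0 of 84 member probe sets passed, and 0 at an unadjusted p under 0.05, while of all 21729 tested probe sets 0 (0%) passed and 517 had an unadjusted p under 0.05.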

How the data were processed

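RNA from about 10 pooled testes per sample was hybridised to 12 one-colour Affymetrix rat arrays, 2 in each of 6 groups, after biotin labelling, per the labels' protocols. The authors deposited 1 signal intensity per probe set and array. The values were on a linear scale from 0 to 9534.9, with a mean of 125 after trimming 2% at each end on every array; the program that made them is not given in the sources used here. Signal over background, and not a read depth, limits precision, and the number of arrays does too: 2 against 2 allows no exact permutation p below 0.333.

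Probe sets were named through the platform's annotation: of 31042, 20826 had 1 symbol, 436 several and 9780 none. The deposited values were kept as scaled by the authors. After log2(value + 16), the lowest 30% by mean were left out (below a signal of 14.8), and limma 3.58.1 in R 4.3.3 fitted 6 group means to 21729 probe sets (lmFit, eBayes with trend, 6 residual degrees of freedom), with Benjamini-Hochberg adjustment at 0.05. Contrasts were vinclozolin minus control in F1, F2 and F3, their mean, the differences between generations with an F test, and an F test over the control groups. Fold changes of dim probe sets are understated by the added constant. The fit was run on simulated data in which each probe set had the same spread in all 6 groups. The spread of the real groups was unequal: array weights ran from 0.356 in F1 vinclozolin to 1.93 in F3 control. The simulation therefore does not test the calls under unequal spread. Python 3.11.15, pandas 2.3.3 and matplotlib 3.10.9 were used for counts, promoters and figures.

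Replicate numbers did not pair the samples: the correlations of replicate deviations between lineages were -0.02, -0.04 and 0.03 in F1, F2 and F3.

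Members named were, per complex and generation, up to 3 called probe sets in each direction by size without overlap of the groups (the 2 smallest p where none was called), up to 5 in each direction for the mean, the 5 smallest p of the generation test, and fixed core subunits and isoforms; up to 4 called genes of each list were eligible. The members, the role groups and the lists (assembly factors, carriers, citric acid cycle, biogenesis, import, and Leydig, Sertoli, germ, interstitial, muscle, erythroid and ovary markers) were chosen with earlier results of these data known. Alternatives changed the constant, the filter, the scaling, the trend, array weights, a replicate block, the probe set per gene, the arrays fitted and each array in turn. Probe sets with several symbols were not used.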

Additional observations from a re-analysis of the deposited data

Results flagged for a closer look

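Uqcrc2 and Uqcrfs1, both subunits of complex III, had lineage differences that differed between F1 and F3 by a test of the difference itself. For Uqcrc2 1382280_at, the F1 difference minus the F3 difference was -1.45 on the log2 scale (limma, adjusted p = 0.0233), and the F test over the 3 generations gave an adjusted p of 0.0492. With any 1 of the 6 controls or either F3 vinclozolin array left out, the F test called 0 members. The other Uqcrc2 probe set, 1373362_at, had an F1 minus F3 value of -0.16 (adjusted p = 0.579). For Uqcrfs1 1371254_at, the F1 difference minus the F3 difference was -0.49 (limma, adjusted p = 0.0301), and the F test did not pass (adjusted p = 0.0624). The F1 minus F3 calls were lost with either F1 control, either F3 control or F3 vinclozolin replicate 1 left out, and for Uqcrfs1 also with either F2 control or F3 vinclozolin replicate 2 left out.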

How the results depend on the processing

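With 2 arrays per group, the calls within a generation moved with the processing. Among the values of all 84 tested members, 1 called value changed sign, the mean of Atp5f1a under cyclic loess (-0.022 against 0.11). This leaves out sign changes of values that were not called. Settings such as the filter, the variance trend and array weights keep the log2 fold change as it is, so its sign could not change there. The scalings can change it: 67 members were positive in all 3 generations on the deposited scale, 54 under quantile normalization, 53 under cyclic loess and 70 under median centring. Over all 84 members, in the 3 generations and the mean together, calls gained reached 66 under 1 setting and calls lost reached 46. Leaving out 1 array gave 26 to 58 members higher in F1, 2 to 38 in F2, 0 to 32 in F3 and 49 to 64 in the mean, 1 to 4 lower in F1, 0 to 5 in F2, 0 in F3 and 2 to 3 in the mean, 0 to 36 dependent on generation and 0 differing among controls; the arrays behind counts that moved by over 1.5 times are named beside the counts above. Fits of 4 arrays alone gave 17 higher and 1 lower in F1, 31 higher in F2 and 34 in F3. Array weights gave 32 higher in F3, 1 lower in F1 and 2 dependent on generation. Without the variance trend, 3 were higher in F2, 0 in F3, and 0 depended on generation. Without the filter, 12 were higher and 1 lower in F2, 3 higher in F3, and 0 dependent on generation. Median centring, which moved the median of all tested probe sets to 0.10 in F1, 0.11 in F2 and 0.04 in F3, gave 34 higher and 1 lower in F2, 1 lower in F1 and 0 dependent on generation, with members' medians of 0.44, 0.31 and 0.25 in F1, F2 and F3. Cyclic loess gave 2 higher in F3 and 4, 1 and 6 lower in F1, F2 and the mean; quantile normalization gave 4 higher in F3, 1 lower in F2 and 6 lower in the mean, with 0 dependent on generation. The members' F1 median was 0.23 under both, and 0.46 and 0.20 without F1 vinclozolin replicates 1 and 2. A constant of 1 gave 0 dependent on generation and one of 64 gave 1 lower in F2. The brightest probe set per gene gave 1 lower in F1, 0 in F2, 1 in the mean and 0 dependent on generation. The mean had 36 higher and 0 lower without F1, and 1 lower without F2. A replicate block, although the numbers did not pair the arrays, gave 46, 20 and 6 higher in F1, F2 and F3, and 1 lower in F2. The alternatives for the role groups, for the F1 minus F3 calls and for the count positive in all 3 generations were chosen after seeing the data. The 6 groups shared 1 estimate of the spread of each probe set. Leaving out an F1 vinclozolin array left the F2 and F3 log2 fold changes as they were, so only their p-values moved, through that estimate. The cause of the other changes was not tested.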
